A study of Mus musculus with 6 samples.

Results

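The 55 genes described here encode the machinery of mitosis: Cdk1 with its cyclins, the other mitotic kinases, the kinetochore and spindle checkpoint, condensin, and the proteins of cytokinesis and of the anaphase-promoting complex. They were chosen by symbol from knowledge of the process, but with earlier results of these data known. Their counts beside those of all genes are therefore descriptive. Each was read from a probe set annotated to it alone, taking the brightest where there were several. In this way 54 of the 55 were measured, among 19938 genes in all. Ccnb1 had no probe set annotated to it alone, so it enters only the search of promoters below. The comparison was between 3 samples of GFP+ cells, which the labels call cortical neural progenitors, and 3 samples of RFP+ cells, their differentiated neuronal progeny. All 6 were brain cells of C57BL/6J mice, purified by fluorescence sorting under a scheme with a pair of reporters, and were hybridised as total RNA to 1 Affymetrix whole-transcript array each. The cortex is named for the GFP+ cells, whereas the RFP+ cells carry the tissue label brain without a region. Neither the age of the mice nor the promoters of the reporters are given in the sources used here. Whether replicates came from separate animals is not stated either, so the p-values measure the spread between these samples, which may be technical.

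Mitosis is started by Cdk1 bound to a B-type cyclin and is completed when the anaphase-promoting complex, a ubiquitin ligase, marks cyclins and securin for destruction. In between, kinetochores assembled on the centromeres capture spindle microtubules, and the spindle checkpoint holds back anaphase until every chromosome is attached. In the developing cortex, radial glia and intermediate progenitors divide near the ventricle and in the zone above it, while the neurons they produce have left the cell cycle for good. Transcripts of many mitotic genes peak in the G2 and M phases of dividing cells.

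The sorted populations carried the markers of their labels. The 10 progenitor markers, among them Sox2, Pax6 and Hes5, were all higher in GFP+, with summed intensities of 53505 to 54857 against 13220 to 15352 in RFP+, and the 10 neuron markers, among them Dcx and Tubb3, were all higher in RFP+, at 67554 to 73029 against 25091 to 29647. Markers of other cell types moved with the groups as well. In GFP+, 12 of 12 endothelial markers were higher (summed intensity 2482 to 8226 against 946 to 1234), as were 8 of 10 pericyte and mural markers (6777 to 8460 against 1323 to 1471), 5 of 7 oligodendrocyte lineage markers (1938 to 2944 against 801 to 1074) and 5 of 8 fibroblast and meningeal markers (1670 to 1785 against 634 to 774). Of 8 inhibitory neuron lineage markers, 2 were higher in GFP+ (10435 to 11324 against 5312 to 11045). Of all genes, 13.8% were higher in GFP+. Pdgfra counted in both the oligodendrocyte and the fibroblast list, and Cspg4 in both the pericyte and the oligodendrocyte list. None of 11 microglial markers (1251 to 1893 against 1566 to 1886) and none of 5 erythroid markers (758 to 1170 against 687 to 748) passed in either direction in the limma test (0 and 2, respectively, at an unadjusted p under 0.05), and no marker was at 0 on any array. These cell types can divide too, and their part in the results below was not tested. GFP+ replicate 1 stood lower than the other GFP+ arrays in the endothelial list, by 1.5 on the log2 scale. In the inhibitory list, RFP+ replicate 1 stood 0.58 above the other RFP+ arrays and replicate 3 stood 0.55 below them.

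In the GFP+ progenitors, 51 of the 54 mitotic genes were higher than in the RFP+ neurons, and none was higher in RFP+ (0 also at an unadjusted p under 0.05). The threshold was a Benjamini-Hochberg adjusted p under 0.05 over all genes in limma. For comparison, 13.8% of all 19938 genes were higher in GFP+ (2742 genes) and 16.2% higher in RFP+ (3236 genes). The median log2 difference of the 54 was 2.07, a 4.2-fold higher intensity in GFP+, with quartiles of 1.75 and 2.31, beside a median of -0.08 over all genes. At least a 2-fold higher intensity was found for 50 of the 54 (7.00% of all genes) and at least a 4-fold one for 32 (2.02% of all genes). Every GFP+ array lay above every RFP+ array for 51 of the 54, as for 19.9% of all genes. Differences are on the log2(intensity + 16) scale, so fold values of dim genes come out too small. The 3 genes that did not pass were Bub3, Cenpc1 and Fzr1.

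**Figure D1:**
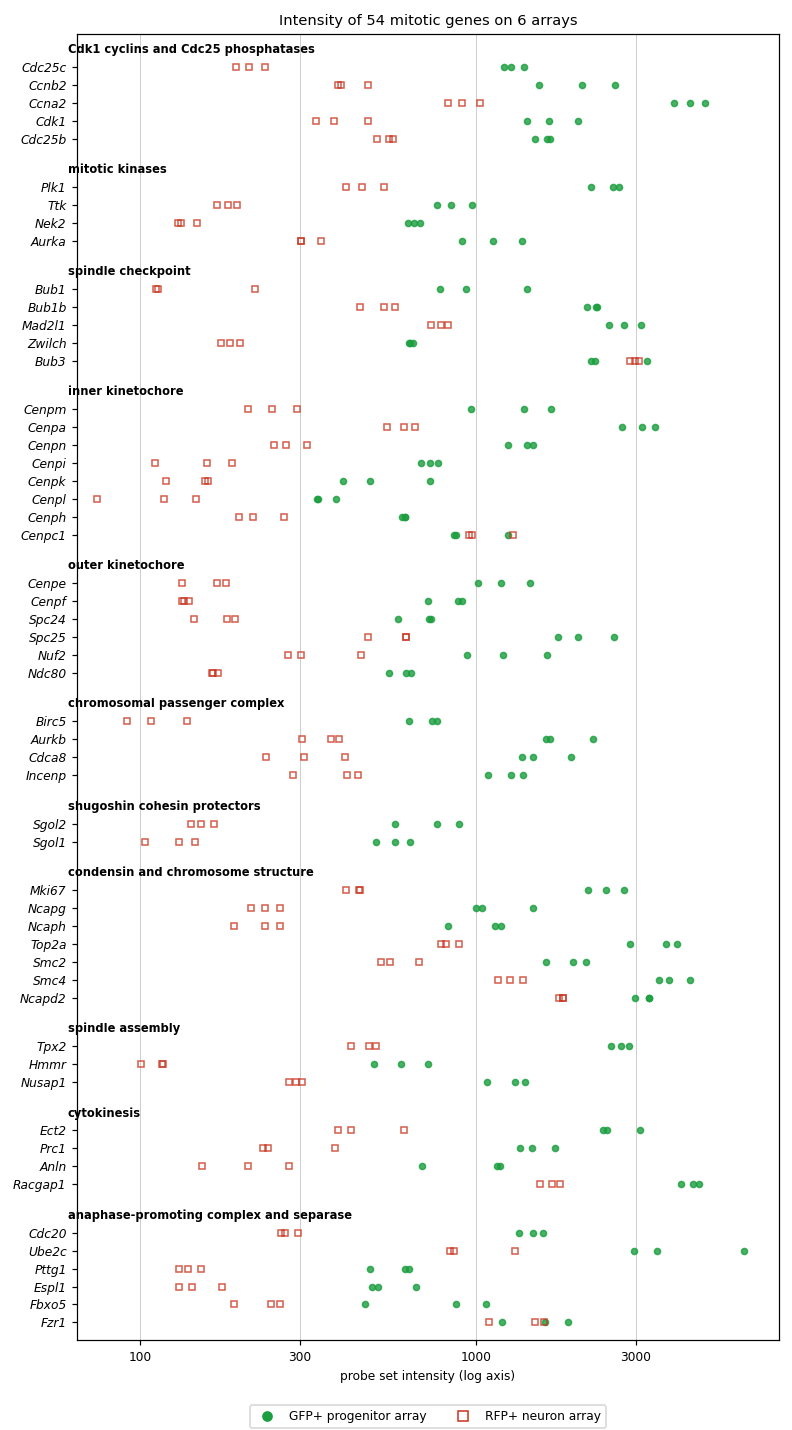
Deposited intensity (horizontal, log axis) of the 54 mitotic genes, grouped by role, on the 3 GFP+ arrays (filled green circles) and the 3 RFP+ arrays (open red squares). The colours are apart for 51 genes and overlap for Bub3, Cenpc1 and Fzr1.

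In the RFP+ samples the intensities were lower but not all near background. Olfactory receptor genes, largely silent in the cortex, gave a near-background level, taken as their 95th percentile on each array. In RFP+, 31 of the 54 genes stayed above it on all 3 arrays, 16 were under it on all 3 and 7 were under it on 1 or 2. The 16 were Ttk, Nek2, Cenpe, Cenpf, Cenpi, Cenpk, Cenpl, Ndc80, Spc24, Zwilch, Birc5, Sgol1, Sgol2, Hmmr, Espl1 and Pttg1. Their RFP+ means, 111.5 (Hmmr) to 185.4 (Zwilch), lay above the olfactory receptor medians of 63.0 to 66.8 on those arrays. How much of these values is signal was not tested. In GFP+ no gene of the 54 was under it on any array. A bulk array cannot tell fewer cells with a transcript from less of it per cell. Progenitor markers kept signal in RFP+ too, with 1 of 10 under this level on all 3 arrays. Pax6 averaged 1488 there and Eomes 3785. Whether progenitors remained among the RFP+ cells was not tested.

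The promoters of these genes are shown next because many G2 and M phase genes are known to share a pair of elements. The cell cycle genes homology region (CHR) is bound by the MuvB core, which forms the DREAM repressor in resting cells and joins B-Myb and FoxM1 in dividing ones. CCAAT boxes are bound by the factor NF-Y. Windows of 300 bases, from 250 before to 50 after each RefSeq transcription start (GRCm38.p6), were searched on both strands for the CHR as TTTGAA or TTCGAA, the CCAAT box as CCAAT and an E2F site as TTTCCCGC, TTTCGCGC, TTTGCCGC or TTTGGCGC. In all, 47 of the 55 genes had 53 such windows, and 1 pair of matches of different motifs overlapped. The genes without an entry were Ccna2, Cdc25c, Aurkb, Spc24, Zwilch, Incenp, Smc4 and Tpx2. Below are the 150 bases before the start for 6 genes higher in GFP+ that hold a CHR match there and for the 3 that did not pass, picked for display after the matches were seen. Each reads 5′ to 3′ in the direction of the gene, with CHR and CCAAT matches on either strand in capitals.
Cdk1: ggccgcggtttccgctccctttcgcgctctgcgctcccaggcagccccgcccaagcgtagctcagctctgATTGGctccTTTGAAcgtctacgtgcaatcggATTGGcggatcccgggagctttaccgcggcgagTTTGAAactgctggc
Cdc20: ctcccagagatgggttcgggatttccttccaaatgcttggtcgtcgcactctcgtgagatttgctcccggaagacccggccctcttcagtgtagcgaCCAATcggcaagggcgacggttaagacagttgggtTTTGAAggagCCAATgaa
Ube2c: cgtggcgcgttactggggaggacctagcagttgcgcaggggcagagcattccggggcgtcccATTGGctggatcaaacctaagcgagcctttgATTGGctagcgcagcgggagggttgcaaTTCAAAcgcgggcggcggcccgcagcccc
Ect2: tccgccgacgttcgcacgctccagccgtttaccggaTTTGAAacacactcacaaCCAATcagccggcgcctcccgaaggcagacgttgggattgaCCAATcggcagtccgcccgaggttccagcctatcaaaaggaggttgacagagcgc
Mki67: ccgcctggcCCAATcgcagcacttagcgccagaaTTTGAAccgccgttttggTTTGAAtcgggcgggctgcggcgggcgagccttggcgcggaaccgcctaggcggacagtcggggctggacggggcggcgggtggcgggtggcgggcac
Top2a: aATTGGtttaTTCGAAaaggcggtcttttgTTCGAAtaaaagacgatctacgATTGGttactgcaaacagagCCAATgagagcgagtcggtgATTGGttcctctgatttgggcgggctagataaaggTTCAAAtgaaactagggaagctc
Bub3: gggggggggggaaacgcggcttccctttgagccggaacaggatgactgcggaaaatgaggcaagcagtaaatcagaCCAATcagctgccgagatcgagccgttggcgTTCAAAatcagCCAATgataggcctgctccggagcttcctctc
Fzr1: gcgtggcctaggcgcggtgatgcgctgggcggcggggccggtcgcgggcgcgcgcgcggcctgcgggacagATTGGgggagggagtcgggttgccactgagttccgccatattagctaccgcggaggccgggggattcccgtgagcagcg
Cenpc1: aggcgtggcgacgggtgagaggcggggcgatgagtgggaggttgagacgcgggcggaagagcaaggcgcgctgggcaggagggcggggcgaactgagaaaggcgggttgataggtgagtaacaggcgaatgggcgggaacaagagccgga

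The stretches lie at chr10:69352913-69353062, minus strand (Cdk1), chr4:118437344-118437493, minus strand (Cdc20), chr2:164769779-164769928, plus strand (Ube2c), chr3:27153879-27154028, minus strand (Ect2) and chr7:135716380-135716529, minus strand (Mki67). Those of the other genes lie at chr11:99024190-99024339, minus strand (Top2a), chr7:131560220-131560369, plus strand (Bub3), chr10:81378371-81378520, minus strand (Fzr1) and chr5:86065584-86065733, minus strand (Cenpc1). Counting the start as +1 and giving the leftmost base of a match, the CHR of Cdc20 began at -18, that of Ube2c at -29 on the opposite strand, and those of Cdk1 at -71 and -15. Bub3, which was not higher in GFP+, also carried a CHR, at -43, together with CCAAT boxes, while Fzr1 and Cenpc1 had a CCAAT box in their windows and no CHR match, that of Cenpc1 lying after the start and so outside the bases shown.

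Across the whole set, a CHR match was present in 35 of 53 windows (66.0%), against 19.2% of all 32851 RefSeq windows and 16.5% of the 19177 windows of genes tested on the arrays. The CCAAT box was present in 45 windows (84.9%), against 37.4% of all windows and 37.4% of those of tested genes. Both were found together in 33 windows (62.3%), against 7.52% and 6.56%. An E2F site, searched as longer motifs that were rarer in every set of windows, was in 5 windows (9.43%, against 2.26% and 2.99%). These were those of Cdk1, Cenpl, Cenpm, Ncapd2 and Ncapg. Median GC content was 59.0% in these windows, 52.7% in all windows and 57.3% in those of tested genes. Birc5, Mad2l1, Ncaph, Nuf2, Nusap1 and Pttg1 held none of the 3 motifs in this window, although each was higher in GFP+. The median log2 difference was 2.11 for the 32 measured genes with a CHR match and 1.98 for the 14 with a window but no match. A match describes letters in a window and does not show that a factor binds there.

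Their positions differed between the motifs. Taking the first window of each gene, 29 of 42 CHR matches (69.0%) lay within 50 bases on either side of the start, against 25.2% of the matches in all windows and 23.3% in those of tested genes, and their median position was -7. CCAAT boxes lay further upstream, with a median of -67.5, and 48 of 80 (60.0%) fell in the 100 bases before the start, against 43.6% and 46.0%.

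**Figure D2:**
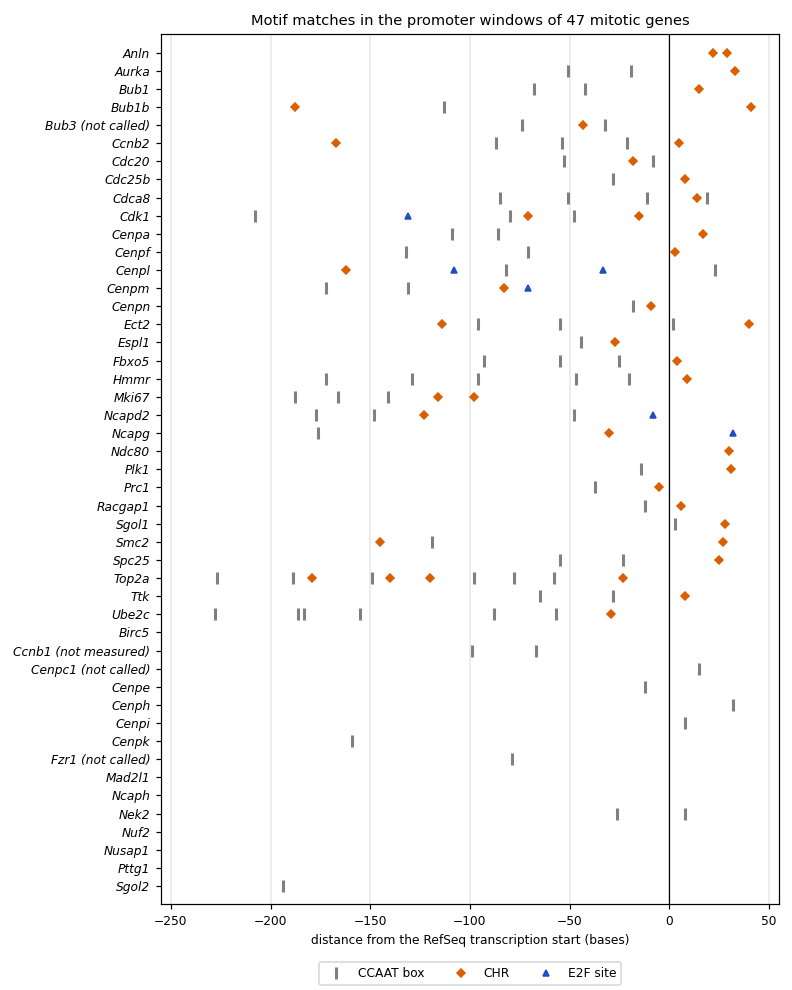
Position of each motif match relative to the RefSeq transcription start (horizontal, in bases; vertical line at the start) in the first promoter window of 47 mitotic genes, with CCAAT boxes as grey bars, CHR as orange diamonds and E2F sites as blue triangles. The 42 CHR matches gather around the start. Most of the 80 CCAAT boxes lie upstream of it, as do 250 of the 300 bases of each window.

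The engine of mitotic entry was higher in GFP+ in all 5 of its measured genes, with a median log2 difference of 2.22. Cdk1, the kinase itself, measured 1423, 2022 and 1652 on the GFP+ arrays and 334, 476 and 377 on the RFP+ arrays. Its difference was 2.06 ± 0.21 (SE; 4.16-fold, adjusted p = 3.13e-07), and the lowest GFP+ array was well above the highest RFP+ array. Ccnb2, a B-type cyclin that activates Cdk1, measured 1543, 2595 and 2068 on the GFP+ arrays and 396, 479 and 389 on the RFP+ arrays, a difference of 2.23 ± 0.22 (adjusted p = 1.66e-07). Cdc25c, a phosphatase that removes inhibitory phosphates from Cdk1, measured 1270.4, 1215 and 1394 on the GFP+ arrays and 194, 210.5 and 236 on the RFP+ arrays. Its groups were the furthest apart of the 5, by 2.51 ± 0.20 (5.71-fold, adjusted p = 1.10e-08). Ccna2, the cyclin of S and G2 phase, differed by 2.22, and Cdc25b, the related phosphatase that acts early in entry, by 1.53.

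The 4 other mitotic kinases were also higher in GFP+, with a median of 2.14. Plk1, which drives centrosome maturation and later cytokinesis, measured 2674, 2568 and 2210.2 on the GFP+ arrays and 409.8, 532 and 458 on the RFP+ arrays, a difference of 2.38 ± 0.20 (5.19-fold, adjusted p = 2.86e-08). Ttk, the Mps1 kinase that starts checkpoint signalling at kinetochores, measured 765, 843 and 977 on the GFP+ arrays and 169.8, 183 and 194 on the RFP+ arrays, a difference of 2.14 ± 0.20 (adjusted p = 8.05e-08). In both cases the arrays of a group lay close together and the groups were far apart. Nek2, a kinase that separates centrosomes, differed by 2.14, and Aurka, the Aurora kinase of the spindle poles, by 1.78.

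The chromosomal passenger complex corrects faulty attachments and later moves to the midzone, and its 4 genes were higher in GFP+ with a median of 2.30. Aurkb, its kinase, measured 1666, 2234 and 1619 on the GFP+ arrays and 304, 392 and 371 on the RFP+ arrays. That is a difference of 2.31 ± 0.21 (4.97-fold, adjusted p = 5.62e-08). Birc5, encoding survivin, which targets the complex to centromeres, measured 739.9, 765 and 632 on the GFP+ arrays and 108, 138 and 91.7 on the RFP+ arrays, a difference of 2.51 ± 0.21 (adjusted p = 1.97e-08), with its RFP+ values near background. Cdca8, the borealin subunit, differed by 2.29, and Incenp, the scaffold, by 1.69.

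Of the 5 spindle checkpoint genes, 4 were higher in GFP+ and Bub3 did not pass. Bub1, a kinase that recruits checkpoint proteins and shugoshin, measured 783, 937 and 1426 on the GFP+ arrays and 112, 113 and 221 on the RFP+ arrays. Its difference of 2.71 ± 0.26 (6.56-fold, adjusted p = 1.21e-07) came with a wider spread than most, since replicate 3 was the highest array in both groups. Bub1b, encoding BubR1, a part of the inhibitor of the anaphase-promoting complex, measured 2147, 2288 and 2299 on the GFP+ arrays and 451, 574 and 535 on the RFP+ arrays, a difference of 2.08 ± 0.20 (adjusted p = 1.10e-07). Bub3, the partner that carries Bub1 and BubR1 to kinetochores, instead measured 2265, 3229 and 2199 on the GFP+ arrays and 3076, 2987 and 2875 on the RFP+ arrays. Its groups overlapped, with a difference of -0.24 ± 0.21 (95% interval -0.68 to 0.20, adjusted p = 0.412). Mad2l1, the Mad2 protein that binds Cdc20, differed by 1.80, and Zwilch, of the complex that brings dynein to kinetochores, by 1.71.

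The inner kinetochore, which sits on centromeric chromatin, was higher in GFP+ in 7 of 8 genes, with a median of 1.96 over the 8. Cenpa, the histone H3 variant that marks centromeres, measured 3121, 3413 and 2730.4 on the GFP+ arrays and 658, 614 and 544 on the RFP+ arrays, a difference of 2.32 ± 0.20 (4.99-fold, adjusted p = 3.43e-08). Cenpm, of the constitutive centromere network, measured 1673, 1392 and 966 on the GFP+ arrays and 247, 294 and 209.9 on the RFP+ arrays, a difference of 2.33 ± 0.23 (adjusted p = 1.43e-07). Cenpc1, which links centromeric nucleosomes to the outer kinetochore, was the exception and measured 862, 875 and 1244 on the GFP+ arrays and 972, 958 and 1288 on the RFP+ arrays. These values overlapped almost fully, with a difference of -0.12 ± 0.22 (95% interval -0.57 to 0.34, adjusted p = 0.718). The rest of the network differed by 2.25 (Cenpn), 2.17 (Cenpi), 1.75 (Cenpk), 1.55 (Cenpl) and 1.38 (Cenph).

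In the outer kinetochore, which holds the microtubules, 6 of 6 genes were higher in GFP+, with a median of 1.87. Cenpe, a kinesin motor that moves chromosomes to the spindle equator, measured 1186, 1015 and 1451 on the GFP+ arrays and 134, 169.5 and 179.8 on the RFP+ arrays, a difference of 2.79 ± 0.21 (6.94-fold, adjusted p = 7.04e-09), with RFP+ values near background, which limits how its fold can be read. Cenpf, a large kinetochore protein that accumulates in G2, measured 722, 913 and 885 on the GFP+ arrays and 135, 134 and 140.3 on the RFP+ arrays, a difference of 2.48 ± 0.20 (adjusted p = 1.35e-08). The 4 subunits of the Ndc80 complex, the main microtubule coupler, lay within a narrow band at 1.89 (Spc24), 1.85 (Spc25), 1.82 (Nuf2) and 1.76 (Ndc80). Both shugoshins, which protect centromeric cohesin, were higher as well. Sgol1, now called Sgo1, measured 638, 503 and 576 on the GFP+ arrays and 103, 130.3 and 146 on the RFP+ arrays, a difference of 2.05 ± 0.21 (adjusted p = 2.11e-07). Sgol2, now Sgo2a, measured 576, 767 and 891 on the GFP+ arrays and 152, 142 and 166 on the RFP+ arrays, a difference of 2.15 ± 0.21 (adjusted p = 1.60e-07).

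**Figure D3:**
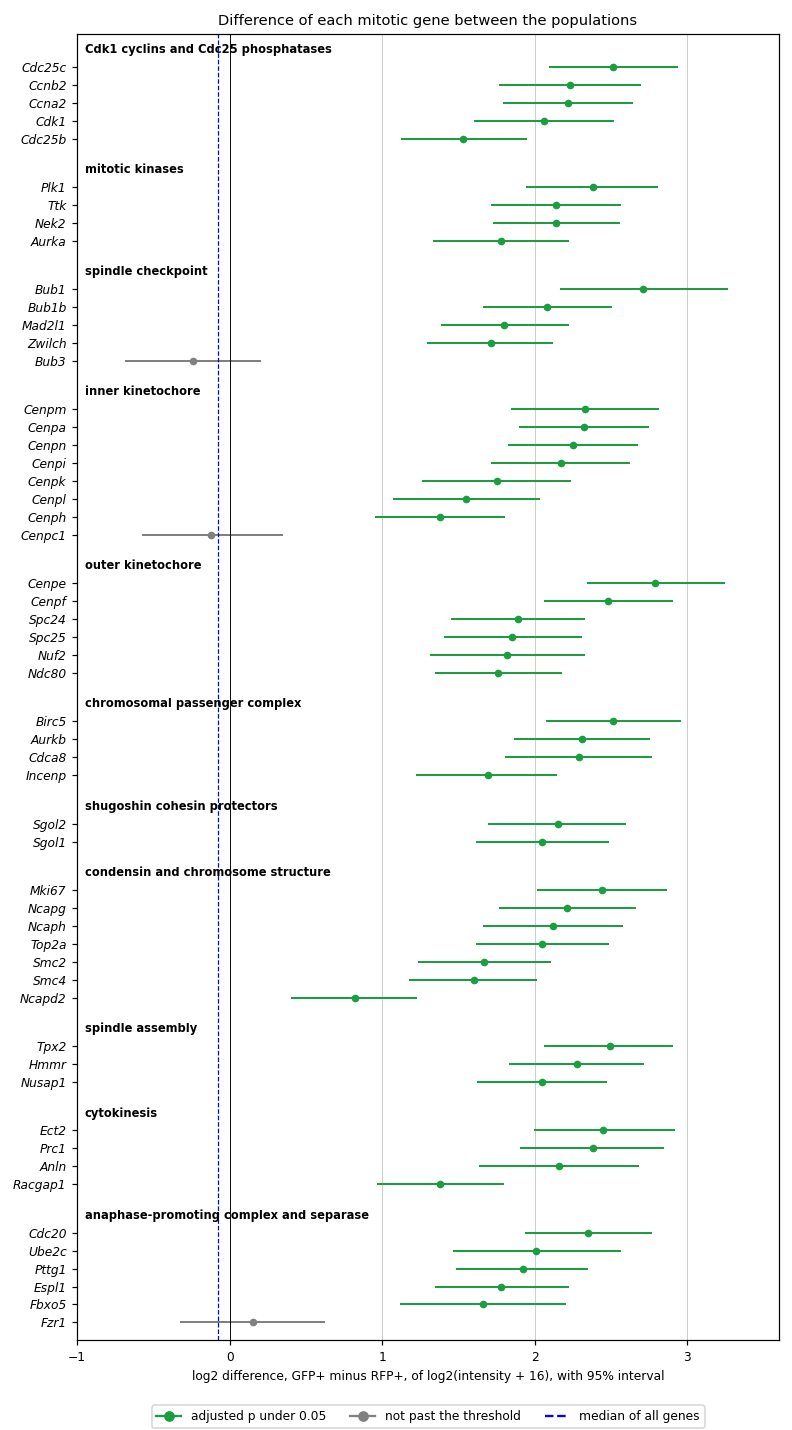
Log2 difference of each of the 54 mitotic genes, GFP+ minus RFP+ of log2(intensity + 16), with its 95% interval (bars) and grouped by role; the dashed line is the median of all genes, -0.08. The intervals of 51 genes (green) lie above 0 and those of Bub3, Cenpc1 and Fzr1 (grey) include 0.

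All 7 genes of condensin and chromosome structure were higher in GFP+, with a median of 2.05, but over the widest range of the roles in which every gene passed. Mki67, the proliferation marker Ki-67 that coats mitotic chromosomes, measured 2452, 2166 and 2769.6 on the GFP+ arrays and 412, 449 and 453 on the RFP+ arrays. The difference was 2.44 ± 0.20 (5.44-fold, adjusted p = 1.68e-08). Ncapg, a subunit of condensin I, measured 1043, 1001 and 1483 on the GFP+ arrays and 215, 236 and 262 on the RFP+ arrays, a difference of 2.21 ± 0.21 (adjusted p = 1.15e-07). Another condensin I subunit, Ncaph, differed by 2.12, and Top2a, the topoisomerase that untangles sister DNA, by 2.05. A further Top2a probe set was dim, at 46.6 to 58.6 in GFP+ and 25.4 to 41.0 in RFP+. Smc2 and Smc4, the ATPase pair shared by both condensins, differed by 1.67 and 1.60. Ncapd2, the third condensin I subunit, differed least of the 51, with 3290.0, 2982 and 3287 on the GFP+ arrays and 1817, 1766 and 1820.4 on the RFP+ arrays. Its groups were apart, but by 0.82 ± 0.19 (1.76-fold, adjusted p = 0.00307), and it was the one gene of the 51 below a 2-fold difference.

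The 3 spindle assembly genes had a median of 2.28. Tpx2, which activates Aurora A and nucleates microtubules around chromosomes, measured 2865, 2538 and 2717 on the GFP+ arrays and 481, 503 and 425 on the RFP+ arrays, a difference of 2.49 ± 0.20 (5.61-fold, adjusted p = 1.15e-08). Hmmr, a spindle protein that works with Tpx2, measured 601, 498 and 722 on the GFP+ arrays and 101, 117 and 117 on the RFP+ arrays, a difference of 2.28 ± 0.21 (adjusted p = 5.69e-08). Nusap1, a microtubule bundler, differed by 2.05.

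Cytokinesis genes were higher in GFP+ in 4 of 4 cases, with a median of 2.27. Ect2, the exchange factor that activates RhoA at the cleavage furrow, measured 2454, 2392 and 3081 on the GFP+ arrays and 389, 425 and 611 on the RFP+ arrays, a difference of 2.45 ± 0.22 (5.48-fold, adjusted p = 4.41e-08). Prc1, which bundles the microtubules of the midzone, measured 1467, 1358 and 1727 on the GFP+ arrays and 240.4, 233 and 381 on the RFP+ arrays, a difference of 2.38 ± 0.22 (adjusted p = 7.92e-08). For both genes replicate 3 was the highest array of each group. Anln, the contractile ring scaffold anillin, differed by 2.16, and Racgap1, a subunit of centralspindlin, by 1.38.

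Of the 6 genes of anaphase and mitotic exit, 5 were higher in GFP+ and Fzr1 did not pass, with a median of 1.85 over the 6. Cdc20, the activator of the anaphase-promoting complex in early mitosis, measured 1478, 1590.2 and 1350.3 on the GFP+ arrays and 263, 269.6 and 295 on the RFP+ arrays, a difference of 2.35 ± 0.20 (5.1-fold, adjusted p = 2.27e-08). Ube2c, the ubiquitin-conjugating enzyme of the complex, measured 2960.1, 6308 and 3463 on the GFP+ arrays and 838, 1310.4 and 861 on the RFP+ arrays. It differed by 2.01 ± 0.26 (adjusted p = 5.29e-06), and replicate 2 was the highest array in both groups. Fzr1, encoding Cdh1, the activator that takes over at mitotic exit and in G1 and is also known to act in neurons, measured 1878, 1614 and 1195 on the GFP+ arrays and 1595, 1507 and 1096 on the RFP+ arrays. Here the groups overlapped, with a difference of 0.15 ± 0.22 (95% interval -0.32 to 0.62, adjusted p = 0.641). Securin (Pttg1) differed by 1.92, separase (Espl1), the protease that securin restrains, by 1.78, and Fbxo5, the inhibitor Emi1, by 1.66.

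The 3 genes that did not pass were bright in both groups, and none was near background. Over 18 other fits of the test, Bub3 ranged from -0.41 to -0.14, Cenpc1 from -0.29 to 0.02 and Fzr1 from -0.01 to 0.33. A p that misses the threshold does not show that the groups are equal, but the 95% intervals of all 3 genes lie below a 2-fold difference in either direction.

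Ratios of related genes within each array, which leave out differences in overall brightness between arrays, were compared in 7 pairs. Probe sets differ in their response, so the change of a ratio between groups can be read but not its level. The ratio of Cdc20 to Fzr1 was -0.06 ± 0.26 (SD, n = 3) in GFP+ and -2.26 ± 0.37 in RFP+ on the log2 scale. That of Bub1b to Bub3 was -0.17 ± 0.29 in GFP+ and -2.49 ± 0.21 in RFP+. For Cdc25c to Cdc25b it was -0.30 ± 0.08 in GFP+ and -1.28 ± 0.07 in RFP+. These 3 ratios were higher on every GFP+ array than on any RFP+ array. The ratio of Aurka to Aurkb went the other way, at -0.69 ± 0.17 in GFP+ and -0.16 ± 0.14 in RFP+, also without overlap. With 3 arrays against 3 taken as independent, the smallest p an exact two-sided permutation test can give is 0.1. These 4 pairs reached it (0.175 after Benjamini-Hochberg adjustment over the 7 pairs), so none can pass 0.05. The test did not use the replicate numbers, which were taken to link samples across the groups, so its p-values leave that link out. The other 3 pairs overlapped between the groups. Bub1 to Bub1b differed by 0.63 (exact permutation p = 0.3), Sgol1 to Sgol2 by -0.10 (exact permutation p = 0.8) and Smc2 to Smc4 by 0.07 (exact permutation p = 0.7). Sgol1 and Sgol2 were near background on all 3 RFP+ arrays, Bub1 on 2 and Cdc25c on 1, which limits how their RFP+ ratios can be read.

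**Figure D4:**
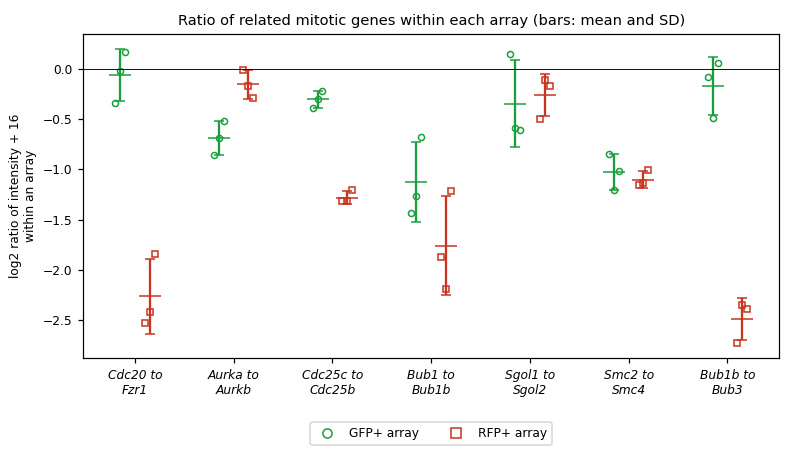
Log2 ratio of intensity + 16 between related mitotic genes within each array, for 7 pairs, with GFP+ arrays as green circles and RFP+ arrays as red squares; long bars are means and whiskers SD (n = 3). The groups do not overlap for Cdc20 to Fzr1, Aurka to Aurkb, Cdc25c to Cdc25b and Bub1b to Bub3.

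Within a group the mitotic genes varied little between arrays, with a median coefficient of variation of 12.9% in GFP+ and 12.5% in RFP+. GFP+ replicate 1 was the lowest GFP+ array for 27 of the 54 genes and lay 0.088 below the group mean at the median (log2). In RFP+, replicate 1 was the lowest for 22 genes and replicate 3 the highest for 28. These shifts are small beside the median difference of 2.07 between the groups.

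Other genes of the same processes, taken from lists of the pathway, moved less uniformly. Among 32 further kinetochore and spindle genes, 23 were higher in GFP+ and none in RFP+ (27 and 0 at an unadjusted p under 0.05 in limma), with a median of 1.74. Tacc3, a spindle stabiliser, was 6.13-fold higher (log2 difference 2.62, adjusted p = 1.10e-08), and Kif11, the kinesin that pushes spindle poles apart, 5.61-fold higher (2.49, adjusted p = 3.79e-08). Of 15 regulators of mitotic entry and exit, 10 were higher in GFP+ and 1 in RFP+, with a median of 1.43. Cks2, a small Cdk-binding subunit, was 6.94-fold higher in GFP+ (2.80, adjusted p = 1.10e-08), and Melk, a kinase of dividing cells, 4.66-fold higher. Arpp19, an inhibitor of the phosphatase PP2A, was the one higher in RFP+, at -0.61 ± 0.20 (SE, adjusted p = 0.0286), and it did not pass in 5 other settings (adjusted p up to 0.187), namely without GFP+ replicate 1 or 2, without RFP+ replicate 1 or 3, and without both arrays numbered 1.

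Among 17 genes of cytokinesis and abscission, 8 were higher in GFP+ and 1 in RFP+ (median 0.46), beside 13.8% and 16.2% of all genes. Kif4, a midzone kinesin, was higher in GFP+ by 2.56 (adjusted p = 1.10e-08) and Cep55, which brings the abscission machinery to the midbody, by 2.49 (adjusted p = 1.97e-08). Vps4a, an ATPase of the ESCRT membrane-cutting machinery that other cell functions use as well, was higher in RFP+, at -0.93 (adjusted p = 0.00124). With the replicate number as a block, 2 genes of this list were higher in RFP+, Tsg101 being added. Of 14 cohesin genes, 6 were higher in GFP+ (median 0.53), led by Cdca5, which encodes sororin, a stabiliser of cohesin, at 2.52 (adjusted p = 3.03e-08), and Esco2, a cohesin acetyltransferase, at 2.08 (adjusted p = 2.49e-07). Without both arrays numbered 1 this count was 3. The 3 remaining condensin genes were all higher in GFP+, with Ncapg2 at 1.77 (adjusted p = 1.68e-06), Ncapd3 at 0.66 (adjusted p = 0.022) and Ncaph2 at 0.59 (adjusted p = 0.0311). Ncapd3 did not pass when replicate 3 of GFP+ was left out, nor when replicate 1 or 2 of RFP+ was. Ncaph2 did not pass when any array but replicate 3 of GFP+ was left out, so the count was 1 without replicate 1 or without replicate 2 of RFP+ and 2 without any other array.

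The core of the anaphase-promoting complex, listed together with the enzyme Ube2s, differed little. Of these 13 genes, 3, Ube2s among them, were higher in GFP+ and none in RFP+ (5 and 2 at an unadjusted p under 0.05 in limma). The share higher in GFP+ is to be read against the 13.8% of all genes, and the median was 0.16. For the unadjusted threshold no share of all genes is given, for this or the other lists, so those counts have no background. Anapc13 stood at 0.78 ± 0.20 (SE, adjusted p = 0.0059) and Ube2s, an enzyme that extends ubiquitin chains on its substrates, at 0.69 ± 0.21 (adjusted p = 0.0165). With the replicate number as a block, 5 were higher in GFP+ (Anapc7 and Anapc11 being added) and 3 in RFP+ (Anapc2, Anapc4 and Anapc5). The call of Ube2s was lost without GFP+ replicate 2 (adjusted p = 0.0606), RFP+ replicate 1 (0.0639) or RFP+ replicate 3 (0.0856), and the count was 1 without RFP+ replicate 1. Without both arrays numbered 1, none was higher in GFP+ in limma (3 at an unadjusted p under 0.05).

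Regulators of these genes were more often higher in GFP+ than in RFP+, and 10 of 22 did not pass. Of these 22 genes of the DREAM, B-Myb and FoxM1 complexes and the E2F and NF-Y families, 11 were higher in GFP+ and 1 in RFP+. The shares of all genes were 13.8% and 16.2%, and the median of the list was 0.59. Foxm1, the transcription factor that activates mitotic genes in G2, was 5.05-fold higher in GFP+ (2.34 ± 0.20, adjusted p = 2.79e-08). E2f8, a repressor of E2F targets that is itself made in S phase, was 4.78-fold higher (2.26, adjusted p = 6.15e-08). Mybl2, encoding B-Myb, was 2.65-fold higher (1.41 ± 0.20, adjusted p = 1.55e-05). Nfyb, a subunit of the CCAAT-binding factor NF-Y, was the one higher in RFP+, at -1.10 ± 0.27 (adjusted p = 0.00353), and did not pass without both arrays numbered 1 (adjusted p = 0.0727).

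**Figure D5:**
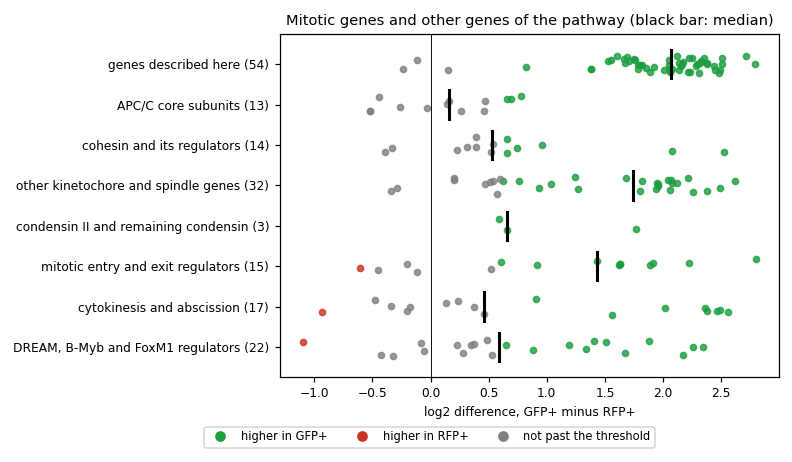
Log2 difference, GFP+ minus RFP+ (horizontal), of the 54 mitotic genes and of the genes of 7 further lists, 1 point per gene, with green for higher in GFP+, red for higher in RFP+ and grey for not past the threshold; the black bar is the median of a list. The medians run from 2.07 for the 54 genes and 1.74 for other kinetochore and spindle genes to 0.16 for the core of the anaphase-promoting complex with Ube2s.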

How the data were processed

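The authors deposited 1 intensity per probe set and array on a linear scale, made with Affymetrix Expression Console per the submitters' processing notes; its version, background correction and normalization are not given in the sources used here. Of 35557 probe sets, 21789 were annotated to 1 gene, 1621 to several and 12147 to none here, and the brightest of each gene was kept (19938 genes, no filter on dim ones). Deposited intensities were taken as log2(intensity + 16) and tested with limma 3.58.1 in R 4.3.3 (lmFit and eBayes, two-sided, Benjamini-Hochberg over all genes), GFP+ minus RFP+. The number of arrays, 3 against 3, limits the precision. The eBayes step draws the variance of each gene towards a value shared by all genes (15.4 prior degrees of freedom). The SE and p-values therefore do not rest on a gene's own spread alone. Figures used matplotlib 3.10.9. The genes described and all lists were chosen with earlier results of these data known. Given with every array are the 2 mitotic genes with the largest difference per role among those past the threshold, and every mitotic gene that did not pass. Mki67, Cdk1, Aurkb, Cdc20, Fzr1, Bub3 and Ncapd2 are given so too. Named without array values are the 2 genes with the largest difference per pathway list and direction among those past the threshold, and Foxm1 and Mybl2. Deviations from the group mean of arrays with the same title number correlated across genes at 0.204, 0.288 and 0.361, those of different numbers at -0.266 to 0.00416, so the numbers were taken to pair samples; the fit without the block, fixed in the design, was kept and the blocked fit was an alternative. Promoters are from RefSeq (GRCm38.p6). The fit was also run on simulated data with independent arrays, which does not bear on the pairing of samples by number.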

Additional observations from a re-analysis of the deposited data

How the results depend on the processing

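Over 18 alternative fits, 971 values of the mitotic genes were recomputed and 969 kept their direction and their side of the threshold. The other 2 changed sign without RFP+ replicate 3, Cenpc1 to 0.02 and Fzr1 to -0.01, neither being past the threshold. The count of the 54 genes higher in GFP+ was 50 to 51, and that in RFP+ was 0. It was 50 in GFP+ where, beside these fits, at least a 2-fold difference was required (Ncapd2 being lost). Without the dimmest 50% of genes it was also 50, since Cenpl was not among the genes tested there. Their median was 1.90 with log2(intensity + 64). The replicate block gave, for the core of the anaphase-promoting complex with Ube2s (APC/C), 5 higher in GFP+ and 3 in RFP+, and for cytokinesis 2 in RFP+. The block moved no other count of calls by over 1.5 times. As a random effect, the number gave APC/C 5 and 3, and 2 in RFP+ for mitotic entry and exit, cytokinesis and DREAM regulators. Counts of APC/C genes higher in RFP+ were 1 with median centring, 2 with log2(intensity + 64) (and 5 in GFP+), 1 without the dimmest 30% of genes, 2 without the dimmest 50% and 2 with a trend and robust moderation. Cytokinesis had 2 in RFP+ under the last 2 of these and with log2(intensity + 64), and entry and exit had 2 with trend and robust moderation. Without both arrays numbered 1, the genes of the whole table called were 3850, against 5978, with APC/C 0 and cohesin 3 in GFP+, entry and exit 0 and DREAM 0 in RFP+, and Smc2 to Smc4 at -0.05. Requiring 2-fold left 2588 genes, with APC/C 0, cohesin 2 and condensin II 1 in GFP+, and entry and exit 0 and cytokinesis 0 in RFP+. Leaving out 1 array at a time gave 0 to 1 in RFP+ for entry and exit, 1 to 3 in GFP+ and 0 to 1 in RFP+ for APC/C, and 1 to 2, against 3 with all arrays, for condensin II; within-array ratios ran from -0.02 to 0.17 for Smc2 to Smc4 and from -0.35 to 0.03 for Sgol1 to Sgol2, and differences from -0.29 to 0.02 for Cenpc1 and from -0.01 to 0.33 for Fzr1. The cause of these shifts was not tested, beyond the fewer arrays or stricter threshold used. The median of all genes was -0.12 to -0.02, and 41.6 to 52.0% of calls were higher in GFP+, against 45.9%. Signal over background limits the 16 genes whose RFP+ values were near background.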
